A study of Mus musculus with 10 samples.

Results

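The 7 genes described here, Neurog3, Neurod1, Isl1, Pax6, Fev, Rfx6 and Insm1, encode transcription factors of enteroendocrine cells, the hormone-secreting cells of the gut lining. They were chosen by name, are 7 of 18020 gene symbols listed, and of the 2116 wells used here 95% of picked and 91.8% of sorted wells held none of them. The libraries come from small intestinal crypts of C57Bl/6 mice with no treatment and no genetic change given, and were made with CEL-seq2, which tags and counts single mRNA molecules at their 3' end. In 3 libraries each well received a picked doublet or triplet, a small structure of interacting cells taken by mouth pipette after mild dissociation, and in 7 libraries each well received 1 sorted cell after dissociation; the age and sex of the mice are not given in the labels. Each library is a plate of 384 wells, and a well was used where its endogenous genes summed to 1000 transcripts or more, which kept 501 picked and 1615 sorted wells. The used wells held 821829 to 1232614 transcripts in the picked libraries and 1022859 to 4832581 in the sorted libraries. The labels do not say which libraries come from separate mice, so p-values measure the spread between libraries, which may be technical. The sorted libraries carry the experiment codes GK5a (replicates 1 to 5) and GK5b (6 and 7) and the picked libraries the code JC, so code and group cannot be told apart. Well numbers restart on each plate and mark positions, not shared cells.

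Enteroendocrine cells arise from dividing crypt progenitors that escape Notch signalling. The basic helix-loop-helix factor Neurog3 is switched on briefly in such a progenitor and is needed for all of its hormone-secreting descendants. Neurod1, another basic helix-loop-helix factor, and Insm1, a zinc-finger repressor, follow it, and the winged-helix factor Rfx6, the paired-box factor Pax6, the LIM-homeodomain factor Isl1 and the ETS factor Fev act in the further course and in the choice of hormone. Chga and Chgb encode chromogranins of the secretory granule, Mki67 marks dividing cells, and Lgr5 marks crypt stem cells.

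The promoters of 6 of the 7 genes are in the RefSeq table for GRCm38.p6. They are shown for Neurog3, the early factor, and for Neurod1 and Rfx6, since at full depth Neurod1 was in 77.8% of sorted Rfx6 wells, the largest share over the factors (with wells reduced to 2000 transcripts 63.7%, against 65.4% of Pax6 wells). Each runs from 250 bases before to 50 bases after the start site, 5' to 3' on the strand of the gene, and the capitals mark the E-box CANNTG, the letters that basic helix-loop-helix factors bind. The Neurog3 promoter lies at chr10:62132840-62133139 on the plus strand, that of Neurod1 at chr2:79456587-79456886 on the minus strand, and that of Rfx6 at chr10:51685268-51685567 on the plus strand. This Rfx6 start site lies within the GENCODE span of the gene, which begins at chr10:51677756, and not at its 5' end.
Neurog3: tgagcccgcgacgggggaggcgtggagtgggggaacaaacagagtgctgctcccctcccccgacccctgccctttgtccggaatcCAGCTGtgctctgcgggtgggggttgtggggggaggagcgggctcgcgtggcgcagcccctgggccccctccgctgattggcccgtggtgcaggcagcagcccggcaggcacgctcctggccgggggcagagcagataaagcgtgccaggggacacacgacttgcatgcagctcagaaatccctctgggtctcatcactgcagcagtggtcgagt
Neurod1: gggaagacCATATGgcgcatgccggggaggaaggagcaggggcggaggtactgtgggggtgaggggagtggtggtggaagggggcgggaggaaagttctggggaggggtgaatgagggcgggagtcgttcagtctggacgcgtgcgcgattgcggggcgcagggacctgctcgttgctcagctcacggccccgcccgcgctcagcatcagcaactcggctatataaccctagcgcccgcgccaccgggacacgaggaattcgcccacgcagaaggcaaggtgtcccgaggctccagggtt
Rfx6: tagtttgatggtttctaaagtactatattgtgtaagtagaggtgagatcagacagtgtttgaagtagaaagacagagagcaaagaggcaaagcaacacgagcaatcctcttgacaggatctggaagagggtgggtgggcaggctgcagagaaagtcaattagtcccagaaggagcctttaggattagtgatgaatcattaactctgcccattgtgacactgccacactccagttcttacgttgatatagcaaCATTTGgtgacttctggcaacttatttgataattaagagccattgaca
Each of these promoters held 1 match, which reads CAGCTG from position -165 in Neurog3, CATATG from position -242 in Neurod1 and CATTTG from position 2 in Rfx6, counted from the start site. The Isl1 promoter held 1 match and the Fev promoter none, and of the 2 Pax6 promoters listed 1 held a match. CANNTG, which reads the same on both strands, was present in 72.3% of all 32851 promoters of this length and CAGCTG in 16.3%, so these matches describe the sequence and no more.

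Every factor was rare and every library held few transcripts of it. Neurog3 had 2.44, 12.2 and 1.72 CPM (a gene's part of the sum over used wells, scaled to a common total) in picked replicates 1, 2 and 3. In the sorted libraries its lowest, median and highest values were 0, 8.91 and 55.4 CPM. The picked values lay within the range of the sorted values, and the sorted libraries themselves differed widely. Sorted replicates 7 and 2 led with 55.4 and 40.8 CPM, while sorted replicate 4 had no Neurog3 transcript in its used wells. That allows a share of up to 1.34% of its used wells. A library sum cannot tell fewer cells from less RNA per cell.

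Neurod1 had 18.7, 12.2 and 8.60 CPM in picked replicates 1 to 3, against a lowest, median and highest of 1.04, 16.9 and 39.4 CPM in the sorted libraries. Insm1 had 4.87, 18.3 and 4.30 CPM in the picked libraries, against 1.45, 17.8 and 30.7 CPM (lowest, median, highest) in the sorted libraries. For both genes the picked values lay inside the range of the sorted values. Among the later factors, Isl1 had 3.25, 6.09 and 1.72 CPM in the picked libraries, against 0.207, 11.1 and 34.3 CPM in the sorted libraries. Pax6 had 4.87, 0 and 1.72 CPM in the picked libraries, against 0.414, 7.24 and 10.2 CPM in the sorted libraries. Only for Pax6 did a picked library, replicate 2, lie below all sorted ones. For Fev and Rfx6 the picked libraries also lay inside the sorted range, at 5.16 to 8.52 CPM against 0 to 20.6 CPM for Fev, and at 0.811 to 3.65 CPM against 0.207 to 12.7 CPM for Rfx6. Sorted replicate 6, the deepest library, was the lowest of the sorted libraries for 6 of the 7 factors, all but Neurog3, and had 1.04 CPM of Neurog3.

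**Figure D1:**
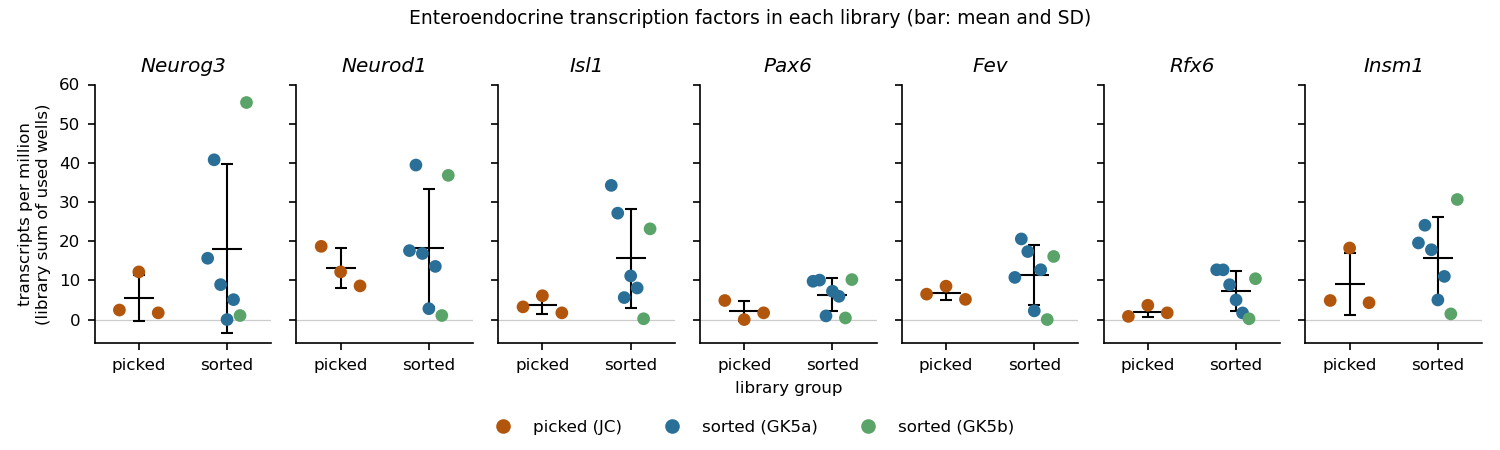
CPM of each factor (y axis) in the 3 picked and 7 sorted libraries (x axis); points are libraries coloured by experiment code, bars the mean and SD. The picked points lie within the range of the sorted points for every factor but Pax6, where picked replicate 2 is at 0, and Neurog3 spans 0 to 55.4 in the sorted libraries.

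The comparison of picked with sorted libraries sets these small structures against single cells. None of the 7 factors passed (limma on log2(CPM + 1), adjusted p under 0.05), in a comparison that called 3136 of 10427 genes, 30.1% (47.9% of them higher in the picked libraries, and 20.1% where library totals replaced TMM scaling, which moved the median of all genes to -0.39). The log2 fold changes, picked over sorted, were -0.60 ± 1.08 for Neurog3, 0.40 ± 0.80 for Neurod1, -0.30 ± 0.69 for Insm1, -0.94 ± 0.71 for Rfx6, -0.96 ± 0.77 for Pax6, -1.08 ± 0.83 for Isl1 and 0.12 ± 0.80 for Fev (SE, 3 against 7 libraries), with limma adjusted p from 0.333 to 0.924. Without sorted replicate 6, Isl1 passed as lower in the picked libraries, at -1.58 with a limma adjusted p of 0.0384. The median of the 7 was -0.60, beside -0.07 over all genes tested. In the same fit 7 of 10 Paneth genes, which mark the antimicrobial cells of the crypt base, were called higher in the picked libraries, and their part in these values was not tested.

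Shares of wells did not pass either. With each well reduced to 2000 transcripts, 0.335% ± 0.176 of picked wells and 1.84% ± 1.39 of sorted wells held Isl1 (SD, 3 and 7 libraries), a difference of -1.51 points. For Neurog3 the shares were 1.25% ± 0.65 of picked and 1.46% ± 1.39 of sorted wells, a difference of -0.211 points. Exact permutation tests over the libraries, two-sided and adjusted over the 7 factors, gave p from 0.219 to 0.825.

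Detection in the wells was checked against granins: Chgb was found in 45.9% of the sorted wells with any of the 7 factors and in 8.7% of those with none. Of 1615 sorted wells, 1482 held none of the 7, 73 held 1, 14 held 2, 6 held 3, and 40 held 4 to 7 of them. The 40 wells with 4 to 7 factors held Chgb in 34 wells and Chga in 27, but Mki67 in 3 and Lgr5 in 2. The 73 wells with a single factor held Chgb in 14 and Chga in 4, and Mki67 in 39 and Lgr5 in 18. The wells with a single factor were deeper, with a median of 12074 transcripts against 4333 in the wells with 4 to 7. Of the wells in which a factor stood alone, most held only 1 transcript of it, 6 of 10 for Neurog3 and 15 of 16 for Neurod1. No doublet caller was run.

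Neurod1, Insm1 and Rfx6 shared most of their wells. Neurod1 was found in 35 of 45 Rfx6 wells and in 38 of 57 Insm1 wells, and Insm1 in 34 of 45 Rfx6 wells. Isl1 was found in 21 of 35 Pax6 wells, and Fev in 22. Neurog3 shared its wells mostly with Insm1, in 22 of 36, then with Neurod1 in 17 and Rfx6 in 15, and least with Isl1 in 8 and Pax6 in 6.

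**Figure D2:**
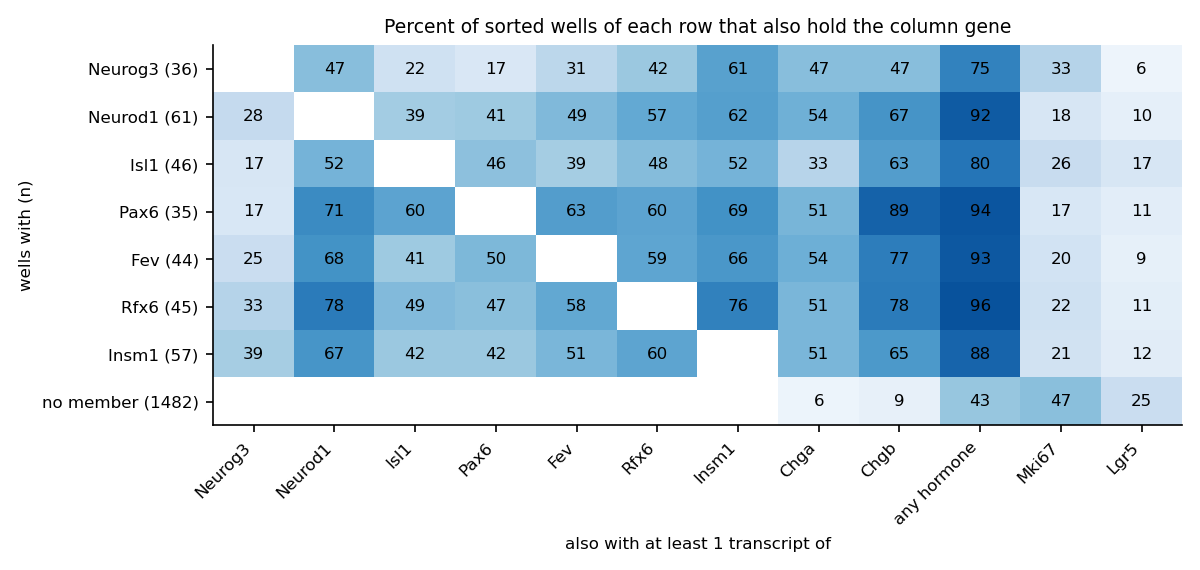
Percent of the sorted wells with each factor (rows, number of wells in brackets) that also held at least 1 transcript of each other factor or readout (columns). Chgb is in 88.6% of Pax6 wells and 47.2% of Neurog3 wells, Mki67 is highest for Neurog3 among the factors at 33.3%, and the bottom row gives wells with none of the 7.

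The correlation of log2(1 + transcripts per 10000) over the 1615 sorted wells, which share their libraries and depth and are given as a description, was taken for each pair. It was 0.76 for Neurod1 with Insm1 and for Isl1 with Pax6, 0.75 for Neurod1 with Rfx6, 0.62 for Neurog3 with Insm1, and 0.10 for Neurog3 with Pax6. Among genes found in at least 20 sorted wells, those most like Neurog3 were Insm1, Epb4.2, Myt1, Vwa5b2 and Gfra3, at 0.53 to 0.62. Myt1 is a zinc-finger factor and Gfra3 a co-receptor for a GDNF-family ligand. For both Isl1 and Pax6 the most alike gene was Scgn, which encodes a calcium-binding protein of endocrine cells, at 0.78, and their 5 nearest genes also shared Cpe, which trims hormone precursors, and Abcc8, a subunit of ATP-sensitive potassium channels. For Fev the first was Chgb at 0.71.

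To set the early factor against the later ones, wells were divided into Neurog3 wells, with at least 1 Neurog3 transcript, other-factor wells, with at least 1 transcript of the other 6 and none of Neurog3, and no-factor wells. The sorted libraries held 36, 97 and 1482 of them, with median depths of 6098, 7258 and 7984 transcripts. Of the 36 Neurog3 wells 26 held another of the factors, and of the 97 other-factor wells 34 held at least 2. The 36 wells come from 6 libraries, 13 from sorted replicate 7 and 11 from sorted replicate 2.

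Chga was present in 17 of 36 Neurog3 wells (47.2%, exact 95% interval 30.4 to 64.5), in 21 of 97 other-factor wells (21.6%, 13.9 to 31.2) and in 86 of 1482 no-factor wells (5.8%, 4.67 to 7.12). Chgb was present in 17 Neurog3 wells, 44 other-factor wells (45.4%, 35.2 to 55.8) and 8.7% of no-factor wells (7.32 to 10.3). Mki67 was present in 12 Neurog3 wells (33.3%, 18.6 to 51), 38 other-factor wells (39.2%, 29.4 to 49.6) and 693 no-factor wells (46.8%, 44.2 to 49.3). Lgr5 was present in 2 Neurog3 wells (5.56%, 0.68 to 18.7), 21 other-factor wells (21.6%, 13.9 to 31.2) and 370 no-factor wells (25%, 22.8 to 27.3). The other-factor wells were mixed. The 63 with a single factor held Chga in 2, Chgb in 11, Mki67 in 35 and Lgr5 in 17. The 24 with 4 or more factors held them in 14, 24, 2 and 2. Their median depths were 13357 and 3310.5 transcripts. The intervals cover counting error only, and the wells of a library are not replicates.

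Compared within libraries, with wells reduced to 2000 transcripts, no readout passed the adjusted threshold in any of the 3 contrasts (exact two-sided sign-flip tests within libraries, adjusted over 15 tests). Chga was found in 40.1% ± 26.6 of Neurog3 wells and 1.52% ± 0.983 of no-factor wells (SD, 6 libraries), higher in 5 of 6 libraries (exact p 0.0625, adjusted 0.134). With wells reduced to 4000 transcripts that difference was 17.6 points, with 2 of 5 libraries higher and 3 lower, and at 10 or more Chga transcripts it was 10.1 points, with 2 higher and 1 lower. Chgb was found in 39.8% ± 20.2 of other-factor wells and 1.92% ± 1.92 of no-factor wells, higher in 7 of 7 libraries (exact p 0.0156, adjusted 0.078).

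Any hormone gene was found in 46.6% ± 9.27 of Neurog3 wells and 21.1% ± 12.5 of no-factor wells, higher in 6 of 6 libraries (exact p 0.0312, adjusted 0.078). This hormone difference was 34.5 points in the 4 GK5a libraries and 7.7 points in the 2 GK5b libraries (exact two-sided permutation p 0.0667, adjusted 0.222). Lgr5 was found in 0.461% ± 1.13 of Neurog3 wells, against 12.1% ± 13.9 of other-factor wells, lower in 6 of 6 libraries (exact p 0.0312, adjusted 0.078). Against the 14% ± 6.43 of no-factor wells with Lgr5, Neurog3 wells were also lower in 6 of 6 libraries, with the same p. The p of 0.0312 is the smallest that 6 libraries allow, and 0.0156 the smallest for 7. At this depth sorted replicates 1, 2, 3, 5, 6 and 7 held 3, 10, 1, 4, 2 and 11 Neurog3 wells. In so few wells a gene as rare as Lgr5 is often at 0, which puts the share below any positive one. The Lgr5 counts of libraries and their p-values are therefore weak evidence of a difference. Without the library as a block, which drops the pairing of classes, both Lgr5 differences passed (exact permutation, adjusted p 0.013). All 10 libraries add picked wells, which hold more than 1 cell. The Chga, Chgb and hormone differences from no-factor wells then passed (sign-flip tests, adjusted p 0.0146 to 0.039). Lgr5 in Neurog3 wells then changed sign, to 5.30 points over other-factor and 4.02 over no-factor wells, with 3 libraries higher and 6 lower in each.

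Between Neurog3 and other-factor wells the other readouts went both ways. Chga differed by 16.6 ± 8.82 points (SE, 6 libraries), higher in 5 of 6 libraries (exact p 0.156, adjusted 0.26). Chgb differed by -15.2 ± 14.2 points, with 3 libraries each way (exact p 0.375, adjusted 0.469). Where a class needed at least 2 transcripts of Neurog3, or of the other 6 together, Chgb was found in 24.7% ± 22.9 of Neurog3 wells and 82.4% ± 21.8 of other-factor wells, and any hormone in 46.9% ± 8.27 of Neurog3 wells and 94.1% ± 8.76 of other-factor wells. Both were then lower in Neurog3 wells in 6 of 6 libraries, at differences of -57.7 and -47.3 points (exact p 0.0312, adjusted 0.052 for both). The Lgr5 difference was then -4.27 points, lower in 3 libraries and higher in 0 (exact p 0.25). The Chga difference changed sign to -6.74 points, with 3 libraries each way (exact p 0.688). This setting changed the make-up of both classes. It dropped the other-factor wells with a single factor transcript, among them 15 of the 16 wells with Neurod1 alone and all 17 with Isl1 alone. It also dropped the 12 of 36 Neurog3 wells with 1 Neurog3 transcript. The part of these dropped wells in the wider gaps was not tested. Mki67 was found in 21.2% ± 22.2 of Neurog3 wells and 23.2% ± 11.1 of other-factor wells, with 3 libraries each way (exact p 0.875). The share of Neurog3 wells with Mki67 was 0% in sorted replicates 1 and 3 and 59% in sorted replicate 6, which holds 2 such wells.

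**Figure D3:**
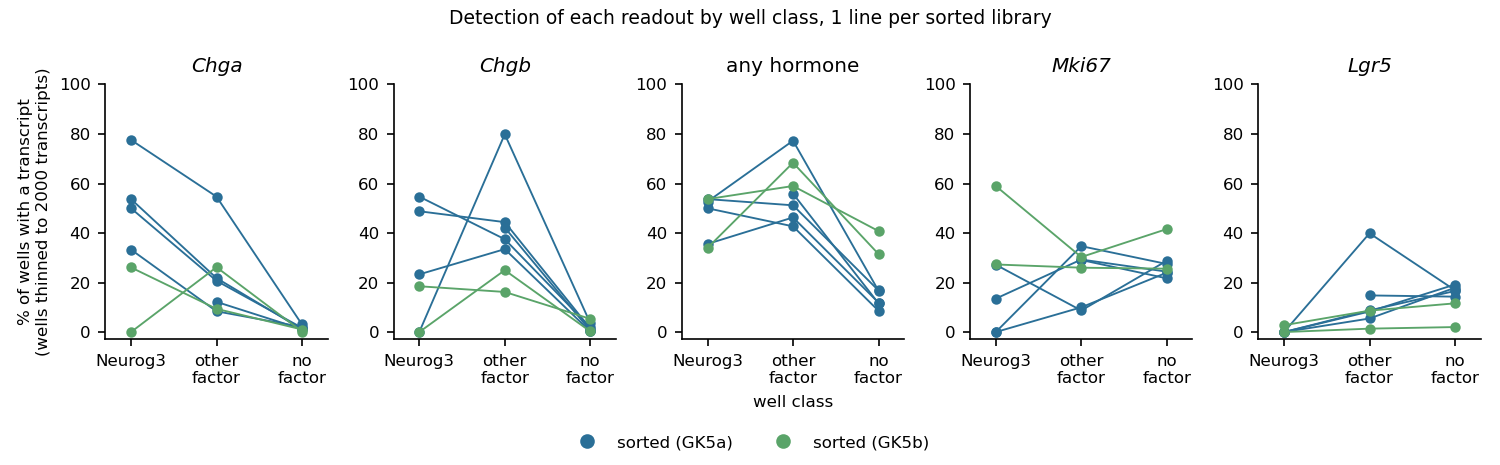
Percent of wells with at least 1 transcript of each readout (y axis) in Neurog3, other-factor and no-factor wells (x axis), with wells reduced to 2000 transcripts; each line is a sorted library, and sorted replicate 4 has no Neurog3 well. Chga and Chgb are at most 5.33% in no-factor wells. Lgr5 is at 0 in Neurog3 wells of 5 of 6 libraries, which hold 1 to 10 such wells at this depth.

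Single hormone transcripts were also common where no factor was found: at full depth any of the 14 measured hormone genes was present in 27 of 36 Neurog3 wells, 78 of 97 other-factor wells and 641 of 1482 no-factor wells. At 10 or more hormone transcripts, a threshold chosen after seeing the data, these counts were 9 Neurog3 wells, 41 other-factor wells and 55 no-factor wells. Over libraries the shares at that level were 23.2% ± 20.8 of Neurog3 wells against 44.3% ± 9.62 of other-factor wells (6 libraries, exact p 0.125, adjusted 0.268). They were 45.6% ± 9.5 of other-factor wells against 3.31% ± 5.62 of no-factor wells, higher in 7 of 7 libraries (exact p 0.0156, adjusted 0.0936).

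Across all genes, sums per class were fitted with limma in sorted replicates 2, 5 and 7, the libraries with at least 5 wells in each class, with the library as a block and the 7 factors left out. Between Neurog3 and other-factor wells limma called none of 4485 genes, 0% (431 had an unadjusted p under 0.05, and the smallest adjusted p was 0.4). Against no-factor wells, Neurog3 wells had 8 called genes, 0.178%, all higher, and other-factor wells had 3, 0.0669%, all higher.

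Chgb had the smallest adjusted p in both contrasts. Its sums were 14300, 8340 and 3910 CPM in Neurog3 wells of sorted replicates 2, 5 and 7 and 5320, 4820 and 1620 CPM in other-factor wells, against 85.2, 23.4 and 19.6 CPM in no-factor wells. Every sum in no-factor wells lay below every sum in the other 2 classes, which overlapped each other, and the log2 fold changes were 7.76 ± 0.29 for Neurog3 over no-factor wells (limma adjusted p 2.4e-05) and 6.63 ± 0.29 for other-factor over no-factor wells (limma adjusted p 8.08e-05). Cpe, the carboxypeptidase of hormone precursors, rose in both classes, by 6.71 ± 0.71 in Neurog3 wells and 6.87 ± 0.71 in other-factor wells on the log2 scale (limma adjusted p 0.0144 and 0.0286). Vim, the intermediate filament vimentin, rose by 5.90 ± 0.64 in Neurog3 wells and 5.57 ± 0.64 in other-factor wells (limma adjusted p 0.0144 and 0.0433). Vim is also a stromal and neural marker. Of the 9 measured markers of that list, Vim included, 7 were at 0 in Neurog3 wells, Col1a1 and Pecam1 among them. With Vim the list summed to 0 to 904 CPM over libraries in Neurog3 wells, 28.4 to 2550 in other-factor wells and 5.8 to 19.5 in no-factor wells. Vim alone had 903 CPM in Neurog3 wells of sorted replicate 5, so the sum of 904 CPM there was Vim with next to nothing of the other markers. For other-factor wells the sums do not show whether other such markers came with Vim.

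The other 5 genes called in Neurog3 wells were Vwa5b2 (6.97), Cacna1a (4.34), which encodes a voltage-gated calcium channel subunit, Gch1 (3.61), the enzyme that starts synthesis of the cofactor of serotonin production, Trp53i11 (3.42) and Marcksl1 (3.13), an actin-regulating protein, all as log2 fold changes over no-factor wells with limma adjusted p from 0.011 to 0.045. These calls rest on few wells, and Chgb itself was at 4.40 (limma adjusted p 0.654) with at least 2 factor transcripts per class and at 3.68 (limma adjusted p 0.279) with at least 1 well per class and library. Neurog3 wells had 1 called gene without sorted replicate 2, which was Chgb, 2 without sorted replicate 5 and 15 without sorted replicate 7, and other-factor wells had 1, 2 and 10. With wells of at least 2000 transcripts, which left sorted replicates 2 and 7, none was called in either contrast; there Neurog3 over no-factor wells gave 9.28 for Chgb, 6.93 for Cpe and 4.27 for Cacna1a (limma adjusted p 0.0938 to 0.118). Sorted replicates 2 and 5 are the GK5a libraries of this fit, and GK5b has too few for a value of its own.

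By lists, 2 of 6 tested granin and processing genes passed as higher in Neurog3 wells over no-factor wells, with a median log2 fold change of 5.76 beside -0.13 over all genes. Of 15 tested regulators of endocrine fate none passed, with a median of 2.77 and 14 of 15 above 0. Nkx2-2, a homeodomain factor, was at 6.11 ± 1.11 and Sox4, an HMG-box factor, at 2.04 ± 0.63, with limma adjusted p of 0.102 and 0.258. Of 22 tested proliferation genes none passed and the median was -0.07. None of the 9 Paneth, 10 goblet or 9 enterocyte genes passed either, with medians of -3.51, -3.12 and -2.34. Goblet genes summed to 527 to 41200 CPM over libraries in Neurog3 wells and 11400 to 61900 CPM in no-factor wells, and their part in these values was not tested. Of 11 immune genes 10 were at 0 in Neurog3 wells, and of 10 tuft genes 8, Dclk1 and Trpm5 among them. In the far more numerous no-factor wells no gene of either list was at 0. Immune genes had a median sum of 0 CPM over libraries in Neurog3 wells and 50.2 CPM in no-factor wells. Tuft genes summed to 482 to 1570 CPM in Neurog3 wells (median 1370) and 434 to 1720 CPM in no-factor wells (median 831). The tuft genes at 0 therefore did not go with a lower sum of that list.

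Between Neurog3 and other-factor wells Dll1, a Notch ligand named after its values were seen, did not pass and had a log2 fold change of 2.56 ± 0.50 (limma adjusted p 0.4). Its lowest sum in Neurog3 wells was 89.8 CPM, and its highest in other-factor wells was 72.7 CPM. Gip, an incretin hormone, had 12.8, 0 and 672 CPM in Neurog3 wells of sorted replicates 2, 5 and 7, against 9870, 2580 and 1910 CPM in other-factor wells (-7.52 ± 1.61, limma adjusted p 0.4). Cck, cholecystokinin, was at -5.95 ± 1.58 (limma adjusted p 0.4), and neither hormone passed.

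Read well by well, the Neurog3 wells were not of one kind. Of the 36 sorted wells, 12 held Mki67, and of these 5 held Insm1, 9 Sox4 and 7 Dll1, but 1 Neurod1, 1 Chga and none Isl1. The well with the highest count of Neurog3, not scaled to depth, was in sorted replicate 7. It held 83 Neurog3 transcripts, 27 of Insm1, 37 of Sox4, 20 of Dll1, 11 of Mki67 and 2 of Lgr5 among 31776, with no Neurod1, Isl1, Fev or Pax6. For its depth it did not lead: another well of that library held 60 of Neurog3 among 6122, with 13 of Neurod1 and no Mki67. Summed over wells, Neurog3 was at 728 CPM in the wells with Mki67 and 1720 CPM in those without. Of the 24 without Mki67, 16 held Neurod1, 16 Chga and 14 Chgb, and none held Lgr5. The wells with Mki67 were deeper, with a median of 20092.5 transcripts against 4889.5.

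The 8 Neurog3 wells without Mki67 and with at least 10 Chgb transcripts held Fev in 6 and Neurod1 in 7, and none held Dll1. In sorted replicate 2 a well of 8507 transcripts held 30 of Neurog3, 20 of Neurod1, 13 of Fev and 50 of Chga. In the same library a well of 5496 transcripts held 4 of Neurog3, 11 of Neurod1, 452 of Chgb, 92 of Tac1, the substance P precursor, and 22 of Tph1, the enzyme of serotonin synthesis. The other 16 wells held Isl1 in 7 and Neurod1 in 9. In sorted replicate 7 one of them, with 10999 transcripts, held all 7 factors, with 17 transcripts of Neurog3, 47 of Neurod1 and 32 of Isl1, 1 of Chgb, and Ghrl, the ghrelin precursor, as its leading hormone.

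**Figure D4:**
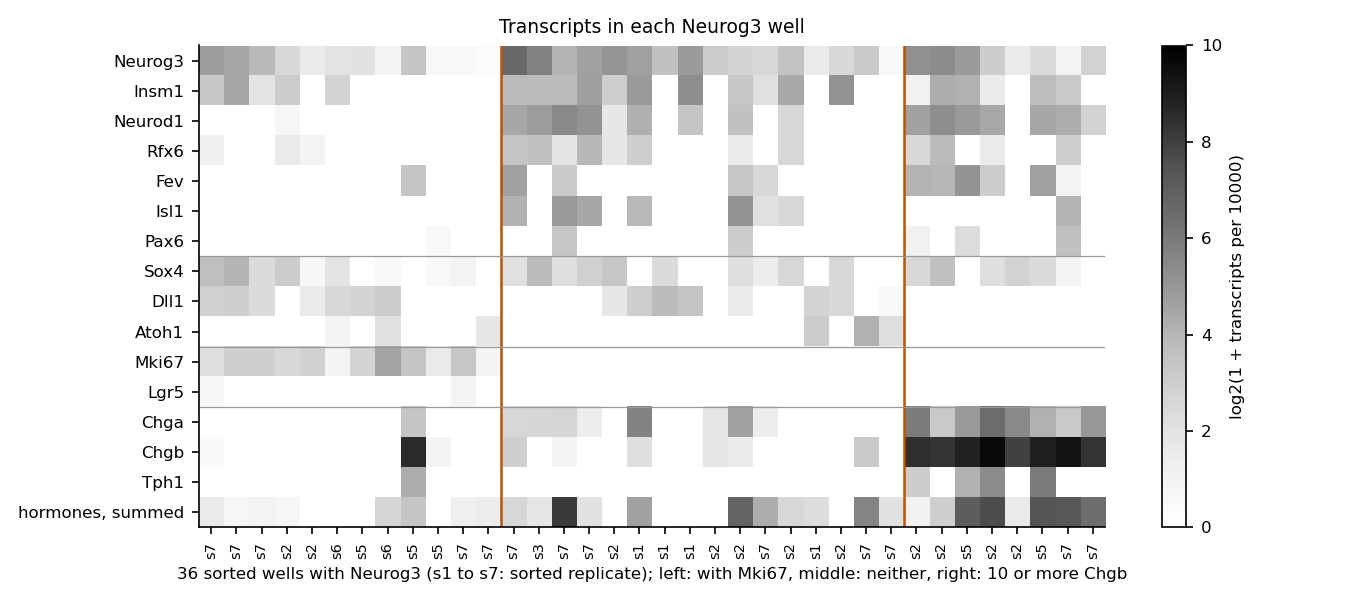
Transcripts of the 7 factors, of progenitor and division genes, and of granins and hormones (rows, log2(1 + transcripts per 10000) in grey) in each of the 36 sorted Neurog3 wells (columns, labelled by sorted replicate). Wells with Mki67 are left of the first line (12 wells) and wells without Mki67 and with 10 or more Chgb transcripts right of the second (8 wells); Neurod1 is present in 1 well of the left block and in 7 of the right.

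Hormones were also counted by Isl1 and Fev. Among sorted wells with at least 2 of the factors, 16 held Fev without Isl1, 11 Isl1 without Fev, and 18 wells held both. At 10 or more transcripts, Tac1 was found in 10 of the 16 Fev wells, 0 of the 11 Isl1 wells and 2 of the 18 with both. Tph1 was found in 6, 0 and 1 of them, and the homeodomain factor Lmx1a in 11, 0 and 2 wells at 1 or more transcripts. Gip at 10 or more transcripts was found in 1 Fev well, 5 Isl1 wells and 9 wells with both. Chgb at that level was found in 14 Fev wells, 4 Isl1 wells and 11 wells with both, and Pax6 at 1 or more transcripts in 6, 5 and 16. These are counts over wells of 7 libraries and were not tested.

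**Figure D5:**
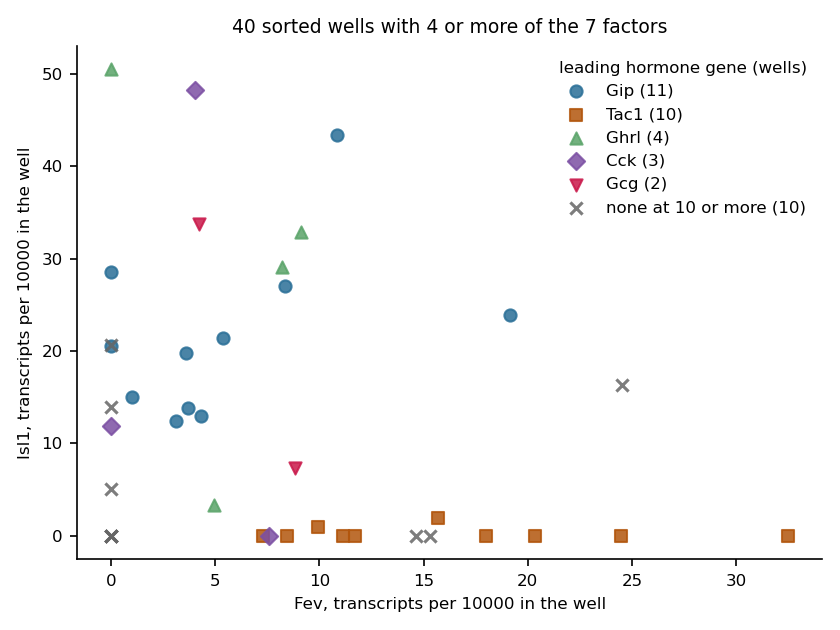
Fev (x axis) and Isl1 (y axis), in transcripts per 10000 of the well, in the 40 sorted wells with 4 or more of the 7 factors; symbols give the hormone gene with the most transcripts where it reached 10. The 10 wells led by Tac1 lie on or near the x axis, and the 11 led by Gip all have Isl1.

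Seen from the hormones, the factors were common in wells rich in most of them. All 12 sorted wells with at least 10 Cck transcripts held at least 1 of the 7 factors, as did all 5 with Gcg, the glucagon precursor, all 5 with Ghrl and all 7 with Tph1, and 16 of 19 with Gip. By comparison 16 of 43 wells with at least 10 Tac1 transcripts and 9 of 22 with Sct, the secretin precursor, held a factor. Those without a factor came mostly from the GK5b libraries. The 27 such Tac1 wells were 20 in sorted replicate 6 and 7 in sorted replicate 7. Of the 13 such Sct wells 9 were in sorted replicate 6, 3 in sorted replicate 7 and 1 in sorted replicate 1. The part of these libraries in the low shares was not tested. In sorted replicate 5 a well of 6802 transcripts held 940 of Gcg and 514 of Pyy with 14 of Neurod1, 5 of Isl1 and 6 of Pax6, and no Neurog3. Neurog3 was in 1 of the 12 Cck wells, 1 of the 19 Gip wells and none of the 5 Gcg wells, but in 3 of the 5 Ghrl wells.

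In the picked libraries 7 wells held Neurog3, 18 another factor and 476 none. A picked well holds more than 1 cell, so genes found together there may come from different cells. Of the 7 Neurog3 wells 5 held Chgb and 4 held Lgr5 (57.1%, exact 95% interval 18.4 to 90.1), against 2 of 36 sorted Neurog3 wells with Lgr5. With wells reduced to 2000 transcripts, Lgr5 was 39.2 points higher in Neurog3 than in no-factor wells over the 3 picked libraries, and -13.6 points over 6 sorted libraries, and the libraries of each kind all went the same way. The difference between them had an exact two-sided permutation p of 0.0119, the smallest that 3 against 6 libraries allow, and of 0.179 adjusted over 30 such comparisons. The picked libraries have 1, 4 and 2 Neurog3 wells, so these shares rest on few wells.

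On the genome (GRCm38, GENCODE M21), Neurog3 lies at chr10:62133090-62134763, Rfx6 at chr10:51677756-51730432, Neurod1 at chr2:79452521-79456751, Pax6 at chr2:105668900-105697364, Insm1 at chr2:146221921-146225020, Isl1 at chr13:116298281-116309689 and Fev at chr1:74881509-74885419. Insm1, Isl1, Fev and Rfx6 overlap no other annotated gene. Pax6 overlaps Pax6os1 on the opposite strand, which had 1 transcript in all used wells, and Neurod1 overlaps Cerkl on its own strand, which had 2. Neurog3 overlaps Fam241b on the opposite strand, and Neurod1 also overlaps Gm26755 on the opposite strand.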

How the data were processed

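CEL-seq2 libraries of mouse small-intestinal crypt cells were analysed from the deposited values, which are molecule estimates per gene and well with no scaling between wells. Per the submitters' processing notes BWA 0.6.2-r126 and mm10 were used; no source used here names the counting software or its strand setting. Deposited values are not whole, but 100% of them equal a whole number of barcodes corrected for 4096 possible barcodes (tolerance 0.001), and transcripts printed per well are those whole numbers. The unit called for limma and no count model.

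Spike-ins were left out, and wells with a sum of at least 1000 were kept. Values were summed per library, or per library and well class, scaled by TMM, filtered (10 at the median library in 3 libraries, 15 in total), and put on the log2(CPM + 1) scale; limma 3.58.1 in R 4.3.3 gave the tests, with Benjamini-Hochberg adjustment over all tested genes and a threshold of 0.05. A fold change is on the log2(CPM + 1) scale and understates low genes in the library sums. Class sums can be small, as with 33196 transcripts in the Neurog3 wells of sorted replicate 5. There a gene at 0 can give a large fold change. For shares of wells each well was thinned to 2000 transcripts, which left out 5 Neurog3, 15 other-factor and 161 no-factor sorted wells; the plotting and counting used Python 3.11.15. Classes were compared within libraries, with the library as block. Intervals are exact Clopper-Pearson at 95% and cover counting error only, as do upper limits for a count of 0, which use 3 counts.

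By the rule for named genes these are the 7 factors, the readouts, the hormones, the called genes of each contrast, called genes of each list, and the 5 genes most correlated with each factor among those in at least 20 sorted wells. Dll1, Sox4, Tph1, Lmx1a and the marker genes at 0 fall outside that rule and were named after their values were seen. The factors and gene lists were chosen with earlier results of these data known. The script of the fits was tested on simulated data. Chi-square values per gene between the 24 pairs of libraries of one group ran from 3.99 to 36.2, so none was a repeat of another.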

Additional observations from a re-analysis of the deposited data

Results flagged for a closer look

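Of 29 groups of library values, 4 held a library far from the others. Chance gives about 1 in 20 such groups where values spread normally. Many of these shares are at 0 or rest on few wells, so that rate need not hold here. Lgr5 was in 2.77% of the Neurog3 wells of sorted replicate 7 and in 0% in the other 5 libraries with such wells. Chga was in 54.7% of the other-factor wells of sorted replicate 3, against 8.39 to 26.2% in the other sorted libraries. Lgr5 was in 39.9% of the other-factor wells of sorted replicate 1, against 1.38 to 14.8%. Mki67 was in 41.6% of the no-factor wells of sorted replicate 6, against 21.7 to 28.8%.

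The Mki67 share in Neurog3 minus no-factor wells was 9.55 points in the 2 GK5b libraries and -16.0 points in the 4 GK5a libraries with Neurog3 wells. The libraries of each code all went their own way, and the exact two-sided permutation p of the difference was 0.133. The Lgr5 share in Neurog3 minus other-factor wells was 39.1 points in picked and -11.6 points in sorted libraries, and in Neurog3 minus no-factor wells 39.2 points in picked and -13.6 points in sorted libraries (exact permutation p 0.0119 for both, adjusted 0.179 over 30 comparisons).

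The 1073 sorted wells under the minimum also held factor transcripts: 5 of Neurog3, 21 of Neurod1 in 14 wells, 25 of Isl1 in 14 wells, 6 of Fev, 8 of Rfx6 and 5 of Insm1.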

How the results depend on the processing

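For picked minus sorted libraries 3136 genes were called, 1452 with the GK5b libraries alone, and 2531 to 3194 with a library left out. The log2 fold change changed sign for Neurod1 (-0.16 with the mean of CPM per well), Fev (-0.17 with library totals, -0.25 with wells of at least 2000 transcripts and -0.25 with GK5a alone) and Insm1 (0.21 with GK5b alone), none of them called. Leaving out a library gave -0.01 to 0.69 for Neurod1, -0.37 to 0.34 for Fev, -0.87 to 0.08 for Insm1 and -1.58 to -0.70 for Isl1. Thinned to 4000 transcripts, the share differences were 0.313 points for Neurog3 and 0.0205 for Neurod1; leaving out a library gave -0.586 to 0.168 for Neurog3.

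Between Neurog3 and other-factor wells 0 genes were called under every alternative run. Neurog3 over no-factor wells had 8 called genes, against 0 with at least 2 factor transcripts, 0 with wells of at least 2000, 4 with no replicate block, 15 with GK5a alone, 19 with at least 1 well per class, 31 with array weights, 2 with Neurog3 wells that held another factor, and 1 to 15 with a library left out. Other-factor over no-factor wells had 3, against 5, 0, 2, 10, 0, 11 and 1 under the same alternatives in the same order, and 1 to 10. The Neurog3 minus other-factor fold change of Chga was 1.07 with GK5a alone (-0.81 to 1.07 with a library left out), -3.88 with at least 2 factor transcripts and -1.42 with at least 1 well per class, against -0.08. That of Mki67, at 0.23, was 5.94 with at least 2 factor transcripts, -0.56 with wells of at least 2000, -2.34 with at least 1 well per class, -0.05 with array weights and -0.50 with Neurog3 wells that held another factor (-0.58 to 0.62). For other-factor minus no-factor wells Mki67 was 0.37 with wells of at least 2000 and 0.36 where Neurog3 wells held another factor (-0.97 to 0.37).

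Among the shares of wells in points, Chga in Neurog3 minus other-factor wells was -6.74 with at least 2 factor transcripts (Chgb -57.7, any hormone -47.3, and Mki67 in other-factor minus no-factor wells -21.4, lower in 6 of 7 libraries) and -3.85 with at least 10 of the readout. Mki67 was 16.4 and 2.58 under the same pair of settings, with -8.14 to 4.53 as a library was left out. With at least 10 of the readout Mki67 was 1.10 in Neurog3 minus no-factor wells and 0.116 in other-factor minus no-factor wells, where thinning to 4000 gave 0.00319. Lgr5 in other-factor minus no-factor wells was 1.08 when thinned to 4000 (-5.71 to 0.209 with a library left out). With all 10 libraries Chgb in Neurog3 minus other-factor wells was 4.86, Lgr5 was 5.30 there and 4.02 in Neurog3 minus no-factor wells. With all 10 libraries these passed: Chga 39.2 and 17.4, Chgb 37.1 and 33.2 and any hormone 35.2 and 36.3, each in Neurog3 and then other-factor wells minus no-factor wells. With no replicate block, Chga 38.6 and 20.4, Chgb 37.9 in other-factor wells, any hormone 25.6 and 37.6, and Lgr5 -11.6 (minus other-factor) and -13.6 (minus no-factor) passed. The cause of these changes was not tested. The planned count-model alternatives were not run, since the values are not counts. No paired analysis was possible between picked and sorted libraries because their replicate numbers link no samples. Few wells per class limit every comparison.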
